A study of Mus musculus with 2 samples.

Results

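The 9 genes Ccr7, Cxcr5, Cxcr4, Ccr6, Ccr2, Cx3cr1, Cxcr3, Cxcr2 and Ccr9 encode chemokine receptors of spleen leukocytes. They were found by gene symbol, mapped from the Ensembl identifiers of the deposited tables, and are 9 of 43346 genes measured. The tables come from the spleen of C57BL/6J mice, a widely used inbred strain, adult and aged 8 weeks, in 2 biological replicates called library 2 and library 1. Both are of 1 group with no treatment or altered allele, so no conditions were compared. The labels describe littermates of mixed sex and do not say how many animals, or which, gave each library. SDs over the libraries (n = 2 throughout) thus show no more than how these samples vary, and that spread may be technical. The p-values show only whether these 2 libraries differ beyond counting error, and such a difference may be technical too. RNA longer than 200 nucleotides was depleted of ribosomal RNA, selected for a poly(A) tail and read from both ends with strand kept. Library 2 had 51393345 expected counts on genes, against 49686344 for library 1.

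Chemokines are small secreted proteins that are displayed on stromal cells and matrix, and their receptors are membrane proteins that span the membrane repeatedly and signal through inhibitory G proteins. A leukocyte that carries the receptor moves towards the source of the ligand. In the spleen this sorts B cells into follicles and T cells into the sheath around the central arteriole, and holds other leukocytes in the marginal zone and red pulp. Levels are given as TPM, reads divided by transcript length and scaled to a fixed total, which allows levels of different genes to be set side by side. The tissue was read in bulk, so fewer cells of a type and less RNA per cell cannot be told apart.

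All 9 receptors were at 1 TPM or more in both libraries, as were 12500 of the 43346 genes (28.8%). Their levels spanned Cxcr4 at 266 ± 16.7 TPM to Ccr2 at 3.33 ± 0.0141 TPM (mean ± SD). Summed, the receptors held 610.8 TPM in library 2 and 667.9 TPM in library 1, or 0.0611% and 0.0668% of all TPM in those libraries. The 3 receptors of lymphoid organ homing, Cxcr4, Ccr7 and Cxcr5, made up most of that sum. Of all TPM, haemoglobin genes held 30.3% in library 2, against 19.4% in library 1, and every TPM value is a share of the same total. With haemoglobin and pancreatic acinar genes taken out of the total, the mean summed level was 965.5 TPM in place of 639.4 TPM.

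Cxcr4 (ENSMUSG00000045382, mm10 chr1:128588199-128592293, minus strand), the receptor of Cxcl12 that most leukocytes carry and that keeps blood precursors and plasma cells in their niches, was the highest of the receptors. It measured 278 TPM in library 2, against 254 TPM in library 1, from 16340 and 14343 counts in those libraries. It ranked 270 in library 2 and 366 in library 1 among all genes. Cxcr4 thus made up 45.4% of the receptor sum in library 2 and 38.0% in library 1.

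Ccr7 (ENSMUSG00000037944, chr11:99144196-99155077, minus strand) brings naive T cells and activated dendritic cells into T cell zones. It measured 122 TPM in library 2, against 175 TPM in library 1, from 11454 and 14864 counts. This was the widest gap between libraries among the 9 genes. Cxcr5 (ENSMUSG00000047880, chr9:44511787-44561877, minus strand), which leads B cells and follicular helper T cells to Cxcl13 in follicles, measured 107 TPM in library 2, against 127 TPM in library 1. The level of Ccr7 was 1.14 times that of Cxcr5 in library 2 and 1.37 times in library 1. The library ranges of these genes overlapped, although Ccr7 was above Cxcr5 within each library.

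Ccr6 and Cxcr3 formed a middle tier. Ccr6 (ENSMUSG00000040899, chr17:8236043-8257141, plus strand), the receptor of Ccl20 on mature B cells and on some helper T cells, measured 36.8 TPM in library 2, against 37.9 TPM in library 1. Cxcr3 (ENSMUSG00000050232, chrX:101731535-101734269, minus strand), through which effector T cells and NK cells follow the interferon-induced ligands Cxcl9, Cxcl10 and Cxcl11, measured 32.6 TPM in library 2, against 37.8 TPM in library 1. These ranges overlapped as well, and the level of Ccr6 was 1.13 times that of Cxcr3 in library 2 and 1.0 times in library 1. Both genes lay below Ccr7 and Cxcr5 and above every remaining receptor in each library.

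The receptors known from myeloid cells were lower. Cx3cr1 (ENSMUSG00000052336, chr9:119901616-120069879, minus strand), the fractalkine receptor of patrolling monocytes and many macrophages, measured 12.98 TPM in library 2, against 15.2 TPM in library 1. Cxcr2 (ENSMUSG00000026180, chr1:74153989-74161246, plus strand), which neutrophils use to leave the marrow and to reach inflamed tissue, measured 10.2 TPM in library 2, against 10.1 TPM in library 1. Ccr2 (ENSMUSG00000049103, chr9:124101950-124113557, plus strand) lets classical monocytes leave the marrow towards Ccl2. It was the lowest of the 9, at 3.34 TPM in library 2, against 3.32 TPM in library 1, from 442 and 398 counts. Cx3cr1 was 3.89 times as high as Ccr2 in library 2 and 4.59 times in library 1. The level of Ccr2 depended on how its length was taken: with all its reads divided by the effective length of its longest transcript, a choice made after seeing the data, it averaged 1.61 TPM. Cxcr4 averaged 189.9 TPM on that scale and was still the highest.

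Ccr9 (ENSMUSG00000029530, chr9:123678439-123784330, plus strand), the receptor of Ccl25 that guides thymocytes, gut-homing T cells and plasmacytoid dendritic cells, measured 8.15 TPM in library 2, against 7.21 TPM in library 1. With all its reads on the longest transcript it averaged 5.08 TPM in place of 7.68 TPM. From the top, the order by mean level was Cxcr4, Ccr7, Cxcr5, Ccr6, Cxcr3, Cx3cr1, Cxcr2, Ccr9 and Ccr2. Among neighbours in that order, library ranges overlapped for Ccr7 with Cxcr5 and for Ccr6 with Cxcr3, and for no other pair.

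**Figure D1:**
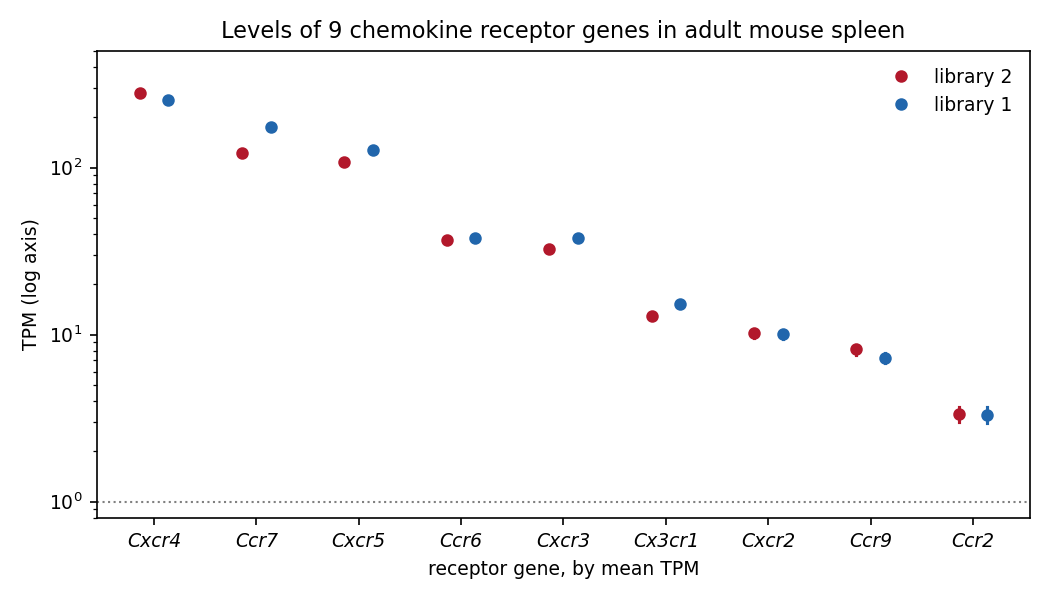
TPM of each receptor gene (log axis), with library 2 in red left of library 1 in blue, genes ordered by mean TPM; vertical bars are the deposited bounds of the TPM, mostly shorter than the symbols, and the dotted line marks 1 TPM. Cxcr4 is highest in both libraries, at 278 and 254 TPM, and Ccr2 lowest, at 3.34 and 3.32 TPM.

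Whether the libraries differed beyond counting error was asked with an exact two-sided binomial test of each gene's counts at TMM-scaled library sizes, adjusted by Benjamini-Hochberg over all 17547 genes tested, with calls at 0.05. It compares these 2 libraries, not conditions, and has no replicate check. Of the 9 receptors 5 were called, against 50.7% of all genes tested, so the receptors' share was near that of genes at large. Higher in library 2 were 2 receptors, against 24.1% of genes tested, and lower were 3, against 26.6%. With library sizes taken without haemoglobin and acinar genes, 4 receptors were called higher and 2 lower. All genes shifted the same way under those sizes: of 9116 genes called, 57.0% were higher in library 2, against 47.6% of those called with TMM. The median log2 ratio of library 2 over library 1 was 0.055 over the receptors and 0.005 over all genes tested. Across genes the libraries had a biological coefficient of variation, the relative spread beyond counting error, of 0.187.

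Ccr7 was lower in library 2, at 0.761 times library 1 (95% exact counting interval 0.742 to 0.779; adjusted p = 2.08e-106, exact binomial test). Of genes at 1 TPM or more in both libraries, 20.7% differed by more than Ccr7 did. Cxcr5 was lower as well, at 0.916 times library 1 (0.895 to 0.937; adjusted p = 8.12e-13, exact binomial test). These receptors of the white pulp zones were thus both lower in library 2, and Cxcr4 was not.

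Cxcr4 was higher in library 2, at 1.125 times library 1 (1.1 to 1.15; adjusted p = 1.12e-23, exact binomial test). Ccr9 was higher at 1.15 times (1.06 to 1.26; adjusted p = 0.00331, exact binomial test), a call that was lost when a trend of the ratios with length and GC content was removed (adjusted p = 0.16, exact binomial test). Cx3cr1 was lower at 0.923 times (0.868 to 0.981; adjusted p = 0.021, exact binomial test). Its call was lost when library sizes were taken without haemoglobin and acinar genes (adjusted p = 0.224, exact binomial test). Intervals cover counting error only.

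The other 4 receptors were not called. Cxcr3 had a ratio of 0.941 (0.892 to 0.993; adjusted p = 0.0504, exact binomial test), and it was called with total counts as library sizes (adjusted p = 0.00653) and with a minimum of 50 counts (adjusted p = 0.0451, exact binomial test in both). Ccr6 had a ratio of 1.04 (0.979 to 1.10; adjusted p = 0.31, exact binomial test), Cxcr2 of 1.09 (1.00 to 1.19; adjusted p = 0.0726, exact binomial test) and Ccr2 of 1.10 (0.955 to 1.26; adjusted p = 0.281, exact binomial test). Without haemoglobin and acinar genes in the library sizes, Ccr6 (adjusted p = 0.0324) and Cxcr2 (adjusted p = 0.00969, exact binomial test) were called. Ccr6 had slightly lower TPM in library 2 although its scaled count was higher there. All 9 receptors lay between the 5th and 95th percentiles of the log2 ratios of genes at 1 TPM or more in both libraries, and 7 of the 9 differed by less than the median such gene.

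**Figure D2:**
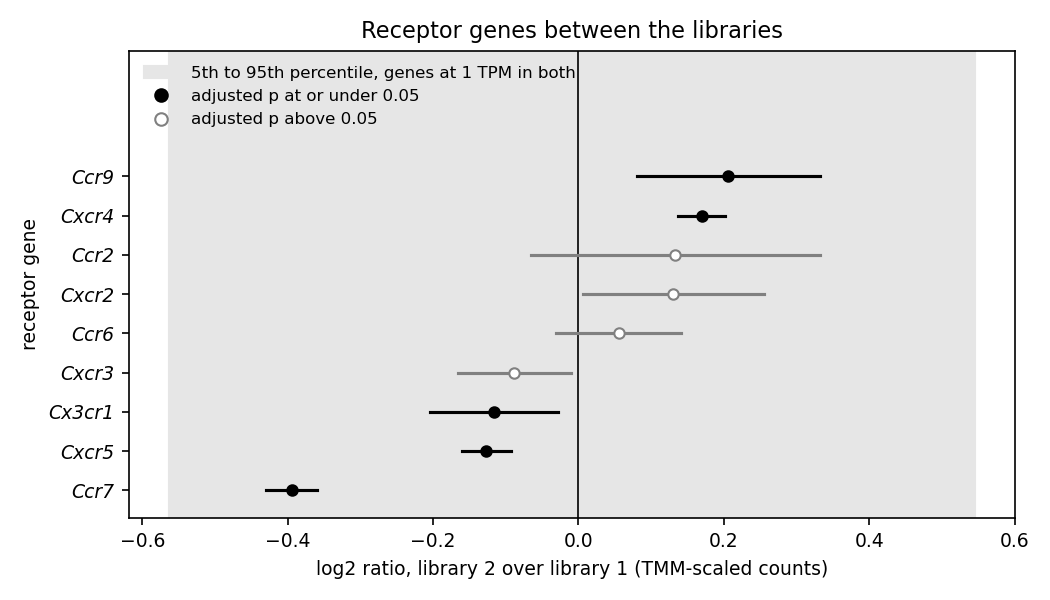
Log2 ratio of library 2 over library 1 for each receptor (points) with its exact 95% counting interval (lines), filled where the adjusted p was at or under 0.05; the grey band spans the 5th to 95th percentile, -0.563 to 0.545, of genes at 1 TPM or more in both libraries. Ccr7 lies farthest from 0, on the side of lower values in library 2, and all points fall inside the band.

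The receptors had 25 annotated transcripts, of which 15 were at 1 TPM or more in both libraries and 2, Ccr6-205 and Ccr2-201, had 0 counts in both. Ccr7 and Cxcr3 had 1 transcript each. Of the 7 receptors with several transcripts, 5 had the same transcript leading by TPM in both libraries, and Cxcr4 and Ccr9 did not. Shares of the gene's TPM are the deposited percentages, which rest on an estimated division of reads among transcripts.

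Cxcr5-201 held 96.02% of Cxcr5 in library 2 and 95.29% in library 1, and the rest came from Cxcr5-202, whose start lies 29970 bases upstream. Cx3cr1-202 held 99.36% of its gene in library 2 and 97.09% in library 1. Cxcr2-201 held 94.86% in library 2 and 92.99% in library 1. Each of these receptors therefore came almost wholly from a single annotated transcript. Ccr2 was more mixed: Ccr2-204 held 68.25% in library 2 and 70.15% in library 1, and the single-exon Ccr2-202 held 29.21% and 26.34% in those libraries.

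Cxcr4 was divided between the full-length Cxcr4-201, of 1805 nucleotides with 1077 coding, and the shorter Cxcr4-202, of 902 nucleotides with 818 coding. Cxcr4-202 held 54.46% of the gene in library 2 and 46.42% in library 1, at 151 and 118 TPM. Cxcr4-201 held 45.54% in library 2 and 53.58% in library 1, at 126 and 136 TPM. By TPM the leading transcript thus changed between libraries, and the deposited bounds of each transcript did not overlap between them. By counts, not divided by length, Cxcr4-201 led in both. It had 10721 counts against 5619 for Cxcr4-202 in library 2, and 10432 against 3911 in library 1. The coding part of Cxcr4-202 is not a whole number of codons, so its annotated model is incomplete. Their annotated starts lie 3 bases apart, so a single promoter window covers both.

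Ccr6 transcripts begin in 3 regions. The most downstream region, 7599 bases from the first start, held 76.27% of Ccr6 in library 2 and 72.5% in library 1, most of it from Ccr6-204 at 71.87% and 63.47% of the gene in those libraries. The region of Ccr6-201, 6314 bases from the first start, held 19.05% in library 2 and 23.32% in library 1. The first region, of Ccr6-202, held 4.69% in library 2 and 4.17% in library 1. The order of the regions was the same in both libraries, and all 6 transcripts carry the same coding length of 1101 nucleotides.

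Ccr9 showed the largest difference in transcript shares. Ccr9-201, whose coding part of 1071 nucleotides is shorter than the 1107 of the other Ccr9 transcripts, held 36.77% of the gene in library 2, from 344 counts, and is listed at 0 in library 1. Its deposited bounds ran from 1.80 to 3.90 TPM in library 2 and reached 0.876 TPM in library 1. Ccr9-204 held 24.81% in library 2 and 58.19% in library 1, and Ccr9-202, which begins 88772 bases upstream of the next start region, held 18.67% and 31.68% in those libraries. By start region the libraries were closer, with the middle region at 75.2% of the gene in library 2 and 64.91% in library 1. For 9 of the 25 transcripts, including Ccr9-201 and most of Ccr6, the length in the annotation used for drawing differs from the deposited one. Their starts, start regions and drawn ends may thus differ from those that were quantified.

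**Figure D3:**
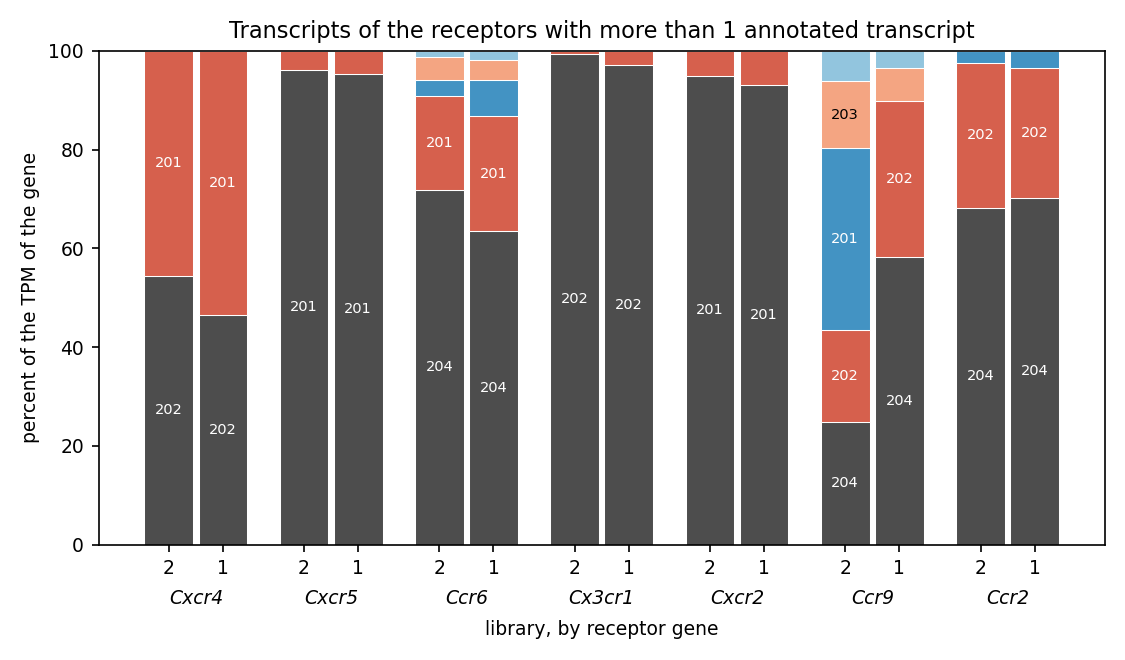
Percent of each gene's TPM held by its transcripts, stacked, for the 7 receptors with more than 1 transcript, library 2 left of library 1; numbers in the bars are transcript name endings, given for shares of at least 9%, and the order of colours follows the mean share within a gene. The bars of Ccr9 differ most between libraries, with Ccr9-201 at 36.77% in library 2 and 0.00% in library 1.

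**Figure D4:**
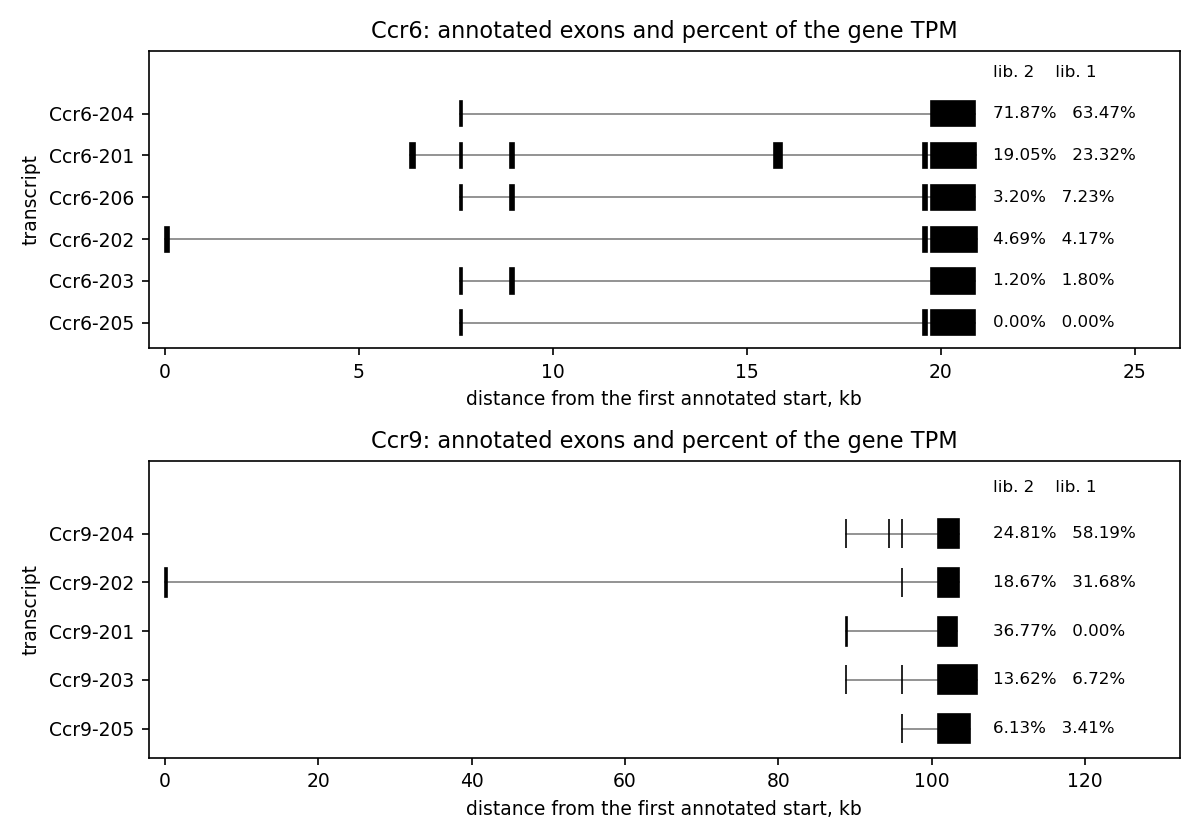
Annotated exons (boxes) and introns (lines) of Ccr6 and Ccr9 transcripts by distance from the first annotated start in kb, with the percent of the gene's TPM in library 2 and library 1 beside each. Ccr6-204 leads Ccr6 in both libraries, and the first start of Ccr9 lies 88772 bases from the next region.

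The start regions were set beside promoter windows from RefSeq, build GRCm38.p6, which take 250 bases before and 50 after a start. The table matched 7 of the 9 receptors with 8 windows, and Ccr7 and Cxcr5 were not matched. Ccr2 divides its reads among transcripts and starts, but its window is not shown. The windows of Cxcr4, Ccr6 and Ccr9, which also divide their reads among transcripts or starts, are shown. The first is the window of both Cxcr4 transcripts (chr1:128592250-128592549, minus strand), the next lie near the first (chr17:8235793-8236092, plus strand) and at the second (chr17:8242276-8242575, plus strand) start region of Ccr6, and the last is the middle region of Ccr9 (chr9:123766961-123767260, plus strand). Capitals mark a TATAAA or GGAAGT match on either strand.
Cxcr4: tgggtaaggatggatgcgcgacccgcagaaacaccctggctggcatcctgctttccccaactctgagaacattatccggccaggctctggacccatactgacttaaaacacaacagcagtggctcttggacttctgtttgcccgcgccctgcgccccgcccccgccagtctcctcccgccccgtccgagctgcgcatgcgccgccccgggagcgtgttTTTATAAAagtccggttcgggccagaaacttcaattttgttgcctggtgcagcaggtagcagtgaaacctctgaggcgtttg
Ccr6, first start: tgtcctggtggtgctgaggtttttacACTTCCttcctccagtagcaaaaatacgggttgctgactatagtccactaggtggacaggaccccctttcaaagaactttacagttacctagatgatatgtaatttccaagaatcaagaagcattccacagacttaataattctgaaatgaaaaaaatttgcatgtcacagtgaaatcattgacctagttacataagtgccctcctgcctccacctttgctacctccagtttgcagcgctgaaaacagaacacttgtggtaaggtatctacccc
Ccr6, second start: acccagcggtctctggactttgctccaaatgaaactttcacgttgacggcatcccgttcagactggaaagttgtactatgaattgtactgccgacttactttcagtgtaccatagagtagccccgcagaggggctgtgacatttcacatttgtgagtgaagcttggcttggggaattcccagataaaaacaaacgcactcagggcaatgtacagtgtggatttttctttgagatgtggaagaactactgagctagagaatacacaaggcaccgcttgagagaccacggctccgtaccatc
Ccr9: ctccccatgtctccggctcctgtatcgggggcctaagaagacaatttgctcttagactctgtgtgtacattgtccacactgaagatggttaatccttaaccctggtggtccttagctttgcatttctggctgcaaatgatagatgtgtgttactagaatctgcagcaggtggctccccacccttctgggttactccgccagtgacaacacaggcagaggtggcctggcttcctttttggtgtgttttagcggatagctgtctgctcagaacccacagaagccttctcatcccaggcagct

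The Cxcr4 window had 59.3% GC and 20 CpG dinucleotides, against medians of 52.7% and 7 over all 32851 windows. It was the only receptor window with TATAAA, the letters of a TATA box, matched on both strands in 2 overlapping places. Of all windows 13.6% held TATAAA. The letters CCAAT, searched on both strands, were in the windows of Cx3cr1 and Cxcr2 and in 37.4% of all windows. GGAAGT, a core that ETS-family factors bind, was in 3 of the 8 receptor windows, those of Cxcr2, Cxcr3 and the first Ccr6 start, and in 23.8% of all windows. CpG counts were below the median of 7 in 6 of the 8 windows. The second Ccr6 window covers the start of Ccr6-201. In the annotation used for drawing, the start of Ccr6-202 lies 169 bases downstream of the RefSeq start of the first window, outside it. The deposited Ccr6-202 is longer, at 1553 nucleotides against 1398, so the start that was quantified may lie elsewhere. By the same annotation, no window covered the Ccr6 start region with most of its TPM. A match of letters is a description and not a bound site.

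Of 9 other signalling receptors described, 6 were at 1 TPM or more in both libraries, all below 6 TPM. Ccr3, known from eosinophils, measured 5.58 TPM in library 2, against 3.89 TPM in library 1, and was higher in library 2 (1.56 times; adjusted p = 3.01e-16, exact binomial test). Cxcr6, the receptor of Cxcl16 on activated T and NK cells, measured 4.72 TPM in library 2, against 3.76 TPM in library 1. Ccr1, of monocytes and neutrophils, stood at 3.96 and 3.81 TPM in those libraries. Every one of the 9 receptors but Ccr2 was thus above all of these genes in both libraries. Xcr1, of cross-presenting dendritic cells, measured 3.18 TPM in library 2, against 2.90 TPM in library 1. Ccr10, of plasma cells and skin-homing T cells, measured 1.48 TPM in library 2, against 1.74 TPM in library 1, and Ccr4, of regulatory and helper T cells, at 1.16 and 1.74 TPM. Of these 9 genes 3 were called higher in library 2 and 2 lower, against 24.1% and 26.6% of all genes tested, with a median log2 ratio of 0.177.

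Atypical receptors bind chemokines without G protein signalling, and several remove them. Ackr3, a scavenger of Cxcl12 found on marginal zone B cells of the mouse, measured 76.3 TPM in library 2, against 107 TPM in library 1, between Cxcr5 and Ccr6. It was lower in library 2 at 0.773 times library 1 (0.754 to 0.792; adjusted p = 4.37e-94, exact binomial test). Ackr2, a scavenger of inflammatory CC chemokines, measured 15.3 TPM in library 2, against 14.5 TPM in library 1. Ackr1, the Duffy antigen of red cells and venules, stood at 11.9 and 11.7 TPM in those libraries. Both lay between Cxcr3 and Ccr9 in level. Pitpnm3, reported as a chemokine receptor in human cells, measured 5.32 TPM in library 2, against 4.67 TPM in library 1, and Ccrl2, which binds chemerin, at 4.82 and 4.36 TPM. Of the 6 atypical receptors measured 3 were called higher in library 2 and 1 lower, against 24.1% and 26.6% of all genes tested.

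**Figure D5:**
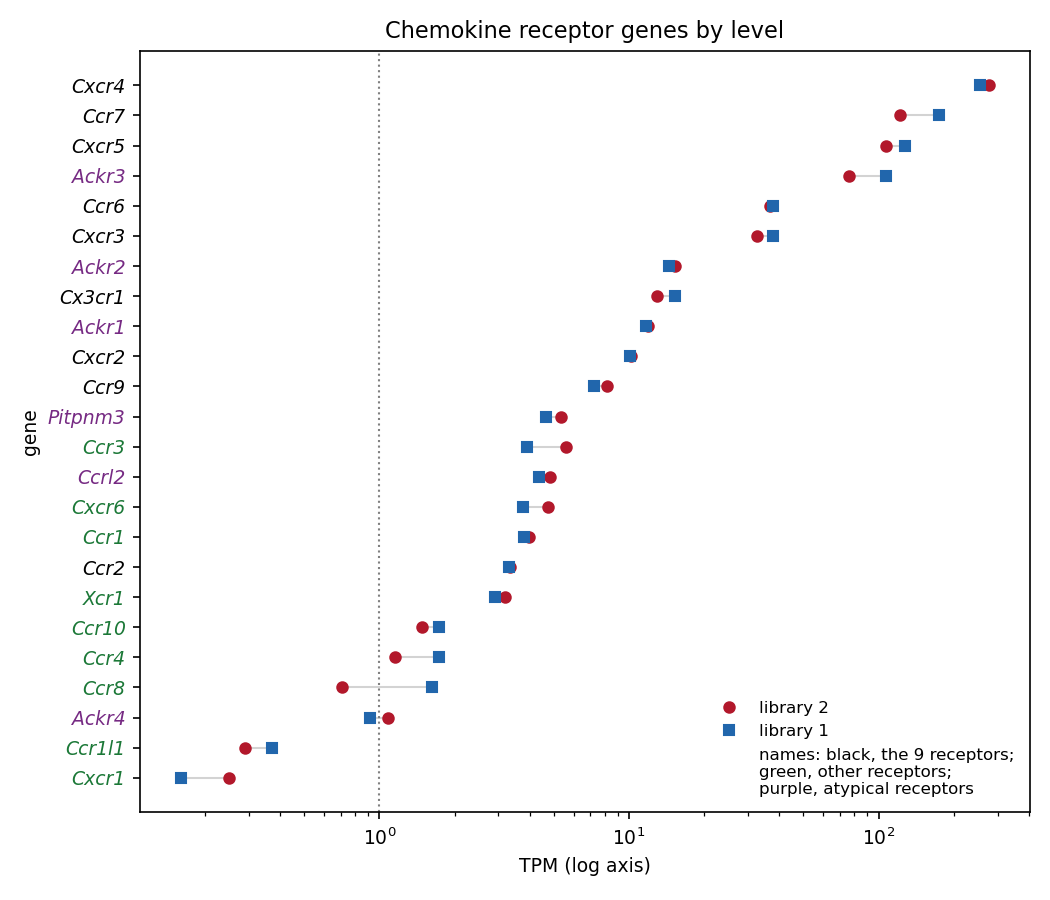
TPM (log axis) of the 9 receptors (names in black), the 9 other receptors (green) and the 6 atypical receptors (purple), with library 2 as red circles and library 1 as blue squares; the dotted line marks 1 TPM. Cxcr4, Ccr7 and Cxcr5 lead, Ackr3 follows at 76.3 and 107 TPM, and the other signalling receptors lie below 6 TPM.

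Of 19 ligand genes measured, 13 were tested, of which 2 were called higher and 5 lower in library 2 (50.7% of all genes tested were called), and Cxcl12, the ligand of Cxcr4, had the highest mean level, at 351 TPM in library 2, against 626 TPM in library 1, followed by the Ccr7 ligand Ccl19 at 423 and 464 TPM and the Cxcr2 ligand Ppbp, a platelet product, at 278.8 and 304 TPM. The called ligands with the widest ratios were Cxcl1, a Cxcr2 ligand at 0.95 TPM in library 2, against 2.16 TPM in library 1, and the Ccr2 ligand Ccl2 at 2.06 and 1.27 TPM. The Cxcr5 ligand Cxcl13 measured 44.8 TPM in library 2, against 38.4 TPM in library 1, whereas the Ccr6 ligand Ccl20 had 0 counts in both, which allows up to 3 counts in each, and the Ccr9 ligand Ccl25 stood at 0.26 and 0.28 TPM.

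The 25 genes that carry receptor signals to the cytoskeleton and integrins were all at 1 TPM or more in both libraries, and 6 were called higher and 13 lower in library 2, against 24.1% and 26.6% of all genes tested, with a median log2 ratio of -0.091. Coro1a, an actin regulator of leukocytes, was highest at 1564 TPM in library 2, against 1705 TPM in library 1. Gnb2, a G protein beta subunit, stood at 687 and 859 TPM, and Gnai2, the main inhibitory alpha subunit of lymphocytes, at 658 and 881 TPM. Each of these stood well above every receptor. The widest called ratios were those of the GTPases Rac1, at 0.623 times library 1 (0.609 to 0.638), and Cdc42, at 1.43 times (1.37 to 1.49).

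The products of receptor desensitization genes phosphorylate or uncouple receptors after ligand binding or, for Rgs genes, regulate G proteins. Of 14 tested 9 were called, with 4 higher and 5 lower in library 2, against 50.7% of all genes called. The kinase Grk2 led at 271 TPM in library 2, against 355 TPM in library 1, followed by the G protein regulator Rgs19 at 190 and 215 TPM and the kinase Grk6 at 139.5 and 175 TPM. The widest called ratios were of low genes, Rgs1 at 1.71 times library 1 (1.23 to 2.39) and Rgs18 at 1.60 times (1.16 to 2.22). Of 14 other positioning receptors tested, 3 were called higher and 6 lower, against 24.1% and 26.6% of all genes tested. S1pr1, which draws lymphocytes out of lymphoid tissue, measured 125 TPM in library 2, against 169.5 TPM in library 1, near Ccr7 and Cxcr5. S1pr4 stood at 114 and 151 TPM, and Cnr2, a cannabinoid receptor of B cells, at 40.3 and 42.5 TPM. The widest called ratios were of Cysltr1, a leukotriene receptor, at 2.51 times library 1 (1.28 to 5.19), and of Gpr55, a lipid receptor, at 1.85 times (1.54 to 2.22). Cysltr1 was below 1 TPM in both libraries, at 0.35 TPM from 33 counts in library 2 and 0.25 TPM from 13 counts in library 1.

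Markers of the cells that carry the receptors were present in both libraries, with none at 0. Their calls stand beside 24.1% of all genes tested called higher and 26.6% called lower in library 2. Sums are of TPM and weigh the highest genes most, whereas calls use TMM-scaled counts, so sums and calls can point opposite ways. The 8 B cell markers summed to 2090 TPM in library 2 and 2312 TPM in library 1, with 6 called higher and 2 lower in library 2. The 8 T cell markers summed to 367 TPM in library 2 and 369 TPM in library 1, with 6 called higher and 0 lower. Ccr7 and Cxcr5 were lower in library 2. The 6 NK cell markers summed to 118 TPM in library 2 and 122 TPM in library 1, with 3 called higher and 1 lower. The 5 classical monocyte markers other than Ccr2 summed to 402.5 and 369 TPM in those libraries, with 3 called higher and 1 lower. The 7 neutrophil markers summed to 224.5 TPM in library 2 and 308 TPM in library 1, with 3 called in each direction. The 4 plasmacytoid dendritic cell markers other than Ccr9 summed to 656 and 771 TPM in those libraries, with 2 called in each direction. For 6 conventional dendritic cell markers the sums were 64.4 and 71.1 TPM, with 3 called higher and 2 lower. For 4 plasma cell markers they were 520.5 and 595 TPM, with 1 called higher and 2 lower. All 6 red pulp macrophage markers were called higher in library 2, and summed to 721 TPM there and 493 TPM in library 1. All 5 red cell markers were likewise called higher in library 2, and summed to 304500 TPM there and 194300 TPM in library 1. Markers of pancreatic acinar cells, which lie outside the spleen, summed to 79300 TPM in library 2 and 96710 TPM in library 1, with 11 of 13 called higher in library 2. The highest of them, Ctrb1, was called lower, at 21059 TPM in library 2, against 36979 TPM in library 1. The part of these markers in the receptor differences was not tested.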

How the data were processed

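Each library has deposited gene and transcript tables on the mm10 assembly with GENCODE annotation M4, computed from transcriptome alignments of 1 biological replicate, per the deposited notes. The aligner and quantification tool were not given in the sources used here. Expected counts, deposited as estimated reads per gene without normalization, were rounded for testing. The deposited TPM values are scaled per length over all entries, spike-ins included, and the authors' transcript tables hold each transcript's percent of the TPM of its gene. The deposited posterior SD of the count was 0 in both libraries for 8 of the 9 receptors, so the estimation left no doubt in assigning their reads to genes. Deposited lists on mm9 were not used here.

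Symbols were matched by identifier for 42462 of 43346 genes, and positions and exons come from GENCODE M21 (GRCm38). Library sizes were scaled with TMM in edgeR 4.0.16 (R 4.3.3), with factors 0.9896 for library 2 and 1.01 for library 1. Genes with 10 or more counts in total were tested with the exact binomial test. DESeq2 1.42.0 size factors were an alternative. Python 3.11.15, scipy 1.17.1 and pandas 2.3.3 did the rest. The test was tested on simulated counts that held counting error only, which cannot show how it behaves under the spread of real libraries. With 2 samples no exact test over samples can reach 0.05. Reads are not independent molecules, so intervals cover counting error only.

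The members, companion lists and tests were chosen with earlier results of these data known. All 9 receptors were described, other and atypical receptors at 1 TPM in both libraries were named, and of each further list other than cell markers the 3 highest genes and the 2 called genes of widest ratio. The ligands Cxcl13, Ccl20 and Ccl25 were named in addition, after their values were seen. Marker lists are given by summed level and calls. Of the further receptor genes measured, 1 is not reported here. With 2 libraries no likeness of profile could be measured.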

Additional observations from a re-analysis of the deposited data

How the results depend on the processing

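The summed receptor level of 639.4 TPM was 965.5 TPM with haemoglobin and acinar genes out of the total and 535.5 TPM with all reads on the longest transcript, the second chosen after seeing the data; leaving out either replicate gave 610.8 to 667.9 TPM. All 9 receptors were detected with posterior means. Limits of 0.5 and 2 TPM could not change that count, since the lowest value was 3.32 TPM, for Ccr2 in library 1. With all reads on the longest transcript Ccr2 averaged 1.61 TPM, under the limit of 2 TPM. Other library sizes, counts and minimums gave 5 or 6 receptors called, beside 8557 to 9116 of all genes. The 8557 were of 14887 genes tested, with a minimum of 50 counts. The 9116 were of 17547, with library sizes taken without haemoglobin and acinar genes. With no count minimum 8755 of 21368 genes were called. With a length and GC trend removed 4 receptors were called, beside 8154 of 17547 genes. With more than 2-fold also required 0 were called, and 98.1% of genes at 1 TPM or more in both libraries lay within 2-fold. Calls over the companion lists other than cell markers numbered 50 to 63 under other library sizes, beside 53. Over all 17547 genes tested they numbered 8893 to 9116, beside 8902. Of the log2 ratios tested again under alternatives, 65 kept direction and side of the threshold, 4 gained and 2 lost a call, and 1 changed sign. These 65 include the ratios with an added prior count of 0.5. The test does not use that count, so their calls could not change. Of the 9 ratios compared by direction alone, 8 kept their direction. The sign changes were in Ccr2, at -0.02 with the length and GC trend removed, and Ccr6, at -0.039 as a difference of log2(TPM + 1). The cause was not tested. No paired analysis was possible because the labels give 1 group. Depth limits Ccr2 most, with 398 counts in library 1.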

Other observations

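Receptors below the limit of 1 TPM in at least 1 library were as follows. Ccr8, known from regulatory T cells, measured 0.71 TPM in library 2, against 1.63 TPM in library 1, and its ratio of 0.480 (0.313 to 0.724) was called (adjusted p = 0.000772, exact binomial test). Ackr4, a scavenger of Ccr7 ligands, measured 1.08 TPM in library 2, against 0.92 TPM in library 1. Ccr1l1 stood at 0.29 and 0.37 TPM in those libraries, and Cxcr1 at 0.25 and 0.16 TPM, from 12 and 7 counts.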
